A study of Homo sapiens with 12 samples.

Results

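The insulin-like growth factor (IGF) binding proteins are a family of secreted carriers, and the genes IGFBP1 to IGFBP7 were taken here as every probe with 1 of these 7 symbols in the log2 normalized table. They make up 7 of 31334 gene symbols and 10 of 47231 probes. IGFBP1, IGFBP3 and IGFBP5 had 2 probes each, numbered here by mean signal with the brighter as probe 1, and the other 4 genes had 1. Transcripts were measured on 12 Illumina HumanHT-12 arrays in MDA-MB-231 breast cancer cells, an established human line, to compare cell density, serum amount, kind of serum and medium. All cells were parental cells of this 1 line, and per the methods all media also held glutamine, pyruvate, amino acids, vitamins and antibiotics.

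Each of 6 culture conditions had 2 arrays. The condition that enters most comparisons was MEM with 10% fetal bovine serum (FBS) at 90% confluence, called the reference condition below. DMEM and RPMI1640, each with 10% FBS at 90% confluence, changed the medium. MEM with 10% horse serum at 90% confluence changed the kind of serum, MEM with 0.1% FBS at 90% confluence its amount, and MEM with 10% FBS at 50% confluence the density. The labels do not state whether the 2 arrays of a condition came from separate cultures, so p-values measure only the spread between these arrays, which may be technical.

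IGF-I and IGF-II act through the type 1 IGF receptor, a tyrosine kinase that drives growth and survival in breast cancer cells. The proteins encoded by IGFBP1 to IGFBP6 bind both ligands tightly, hold them away from the receptor, and release them when proteases cut the carrier, while the IGFBP7 protein binds IGFs weakly and also binds insulin. Several family members also act on cells without IGFs, through integrins or the nucleus.

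The 2 reference arrays stood apart from the other 10 before any gene was singled out. They correlated with each other at 0.996 across probes and with the other 10 at 0.914 to 0.940, while arrays from different conditions among the other 5 correlated at 0.964 to 0.991. Background on each array was set at the 95th percentile of 463 olfactory receptor probes, genes that few tissues express, and was 6.90 to 6.99 as log2 signal. Each array had between 16685 and 20065 probes brighter than that. Of 10 breast epithelial markers, 5 were above background on both reference arrays and 2 to 3 in each other condition, with summed linear signals of 2469 to 2844 against 1245 to 1553. In the log2 table the epithelial markers KRT19, GATA3, CDH1, ESR1 and PGR were not above background on both arrays of any condition. Of the 10, 3 to 4 were called higher in the reference and 0 lower across the 5 comparisons. KRT8 was at 10.04 in the reference condition against 6.58 to 6.89, and KRT7 at 8.47 against 6.90 to 8.16. KRT18 was at 8.09 against 7.40 to 8.08, EPCAM at 7.24 against 6.67 to 6.92, and ERBB2 at 8.16 against 7.84 to 8.20. In the linear table, where 8 probes, among them those of CDH1, CD44 and VIM, stand exchanged with others, the epithelial counts were 6 and 3 to 4 and the sums 3421 to 3962 against 1311 to 1690. All 6 mesenchymal markers of this line were above background in the reference condition and 5 to 6 in each other condition, with sums of 29628 to 35319 against 23270 to 37493 (17939 to 21662 against 17041 to 24143 in the linear table). By the log2 values, 2 to 4 of these 6 were called higher and 0 to 3 lower in the reference across the 5 comparisons. Of 8 melanocyte-lineage markers, 4 were above background on the reference arrays and 4 to 5 in the other conditions, with sums of 1648 to 1833 against 2314 to 9792, and 0 to 1 of the 8 were called higher and 2 to 5 lower in the reference across the 5 comparisons. Among them SOX10 was at 8.25 against 9.95 to 11.10, while TYR was at 7.83 against 6.89 in horse serum, 7.02 at 50% confluence, 7.41 in RPMI1640, 7.55 in DMEM and 9.44 in 0.1% FBS. Fibroblast markers (2 of 7 against 1) summed to 858 to 859 against 763 to 928, and blood and endothelial markers (2 of 5 against 1 to 2) to 855 to 943 against 958 to 1217. The part of these differences in the values of the IGFBP genes was not tested, and each result against the reference condition rests on the same 2 arrays.

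IGFBP1 and IGFBP3 are neighbouring protein-coding genes on chromosome 7, and IGFBP2 and IGFBP5 are neighbours on chromosome 2. IGFBP7 lies on chromosome 4, IGFBP6 on 12 and IGFBP4 on 17. RefSeq's gene table matched all 7 genes and its promoter table (GRCh38.p14) held 5, without IGFBP1 and IGFBP7. The 150 bases before the annotated start, written 5′ to 3′, are shown for the 4 genes with 1 window each in that table, of which IGFBP3, IGFBP4 and IGFBP6 were higher in the reference condition and IGFBP5 was not called. Capitals mark matches, on either strand and without overlap, to 4 promoter motifs, which are the TATA box TATAAA, the related TATATA, the GC box GGGCGG (its other strand reads CCGCCC) and the box named for its letters CCAAT. The windows are chr7:45921273-45921422 on the minus strand for IGFBP3, chr17:40443300-40443449 on the plus strand for IGFBP4, chr2:216695550-216695699 on the minus strand for IGFBP5 and chr12:53097517-53097666 on the plus strand for IGFBP6.
IGFBP3: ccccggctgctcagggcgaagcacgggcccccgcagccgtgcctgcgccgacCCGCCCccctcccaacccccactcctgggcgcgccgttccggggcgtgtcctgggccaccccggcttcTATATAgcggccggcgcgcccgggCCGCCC
IGFBP4: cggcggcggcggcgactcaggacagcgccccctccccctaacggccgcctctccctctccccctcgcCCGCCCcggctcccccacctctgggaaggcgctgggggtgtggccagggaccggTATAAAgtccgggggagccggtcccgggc
IGFBP5: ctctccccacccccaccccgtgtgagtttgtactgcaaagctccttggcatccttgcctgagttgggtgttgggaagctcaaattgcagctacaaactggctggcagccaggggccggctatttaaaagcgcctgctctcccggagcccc
IGFBP6: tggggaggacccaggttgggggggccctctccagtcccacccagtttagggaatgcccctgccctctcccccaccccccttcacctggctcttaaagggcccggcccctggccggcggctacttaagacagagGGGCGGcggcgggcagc
The IGFBP4 window held TATAAA beginning 29 bases before the start and 1 GC box (GGGCGG) at 83 bases. The IGFBP3 window held TATATA at 30 bases and GC boxes at 98 and 6 bases, and the IGFBP6 window held 1 GC box at 17 bases. None of the searched letters was in the IGFBP5 window. IGFBP2, also not called, had 3 windows, of which 2 held 1 GC box each, at 86 and 49 bases, so that GC boxes were found for called and uncalled genes. Among 35116 RefSeq promoter windows of the same length, 6.71% held TATAAA, 2.19% TATATA, 36.8% GGGCGG and 23.5% CCAAT. These matches describe letters and say nothing of which factor binds.

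Of the 7 genes, 5 were higher in the reference condition than in each of the other 5 conditions, and IGFBP2 and IGFBP5 were at or near background throughout. On 7 of the 10 probes, for IGFBP1, IGFBP3, IGFBP4, IGFBP6 and IGFBP7, both reference arrays lay above all 10 other arrays, as they did on 11% of all probes. Called means that limma gave an adjusted p under 0.05, with the Benjamini-Hochberg correction over all probes. The same 7 probes were called higher in all 5 comparisons with the reference condition, against 6.06% of all probes and 16.4% of the 17273 probes above background on both reference arrays. Leaving out either reference array cost no call on these probes but those of IGFBP1 probe 2 given below. Since the 5 comparisons share the 2 reference arrays, they are not separate evidence, and their values are given side by side. In RNA from whole cultures, fewer cells that express a gene and less RNA per cell cannot be told apart.

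**Figure D1:**
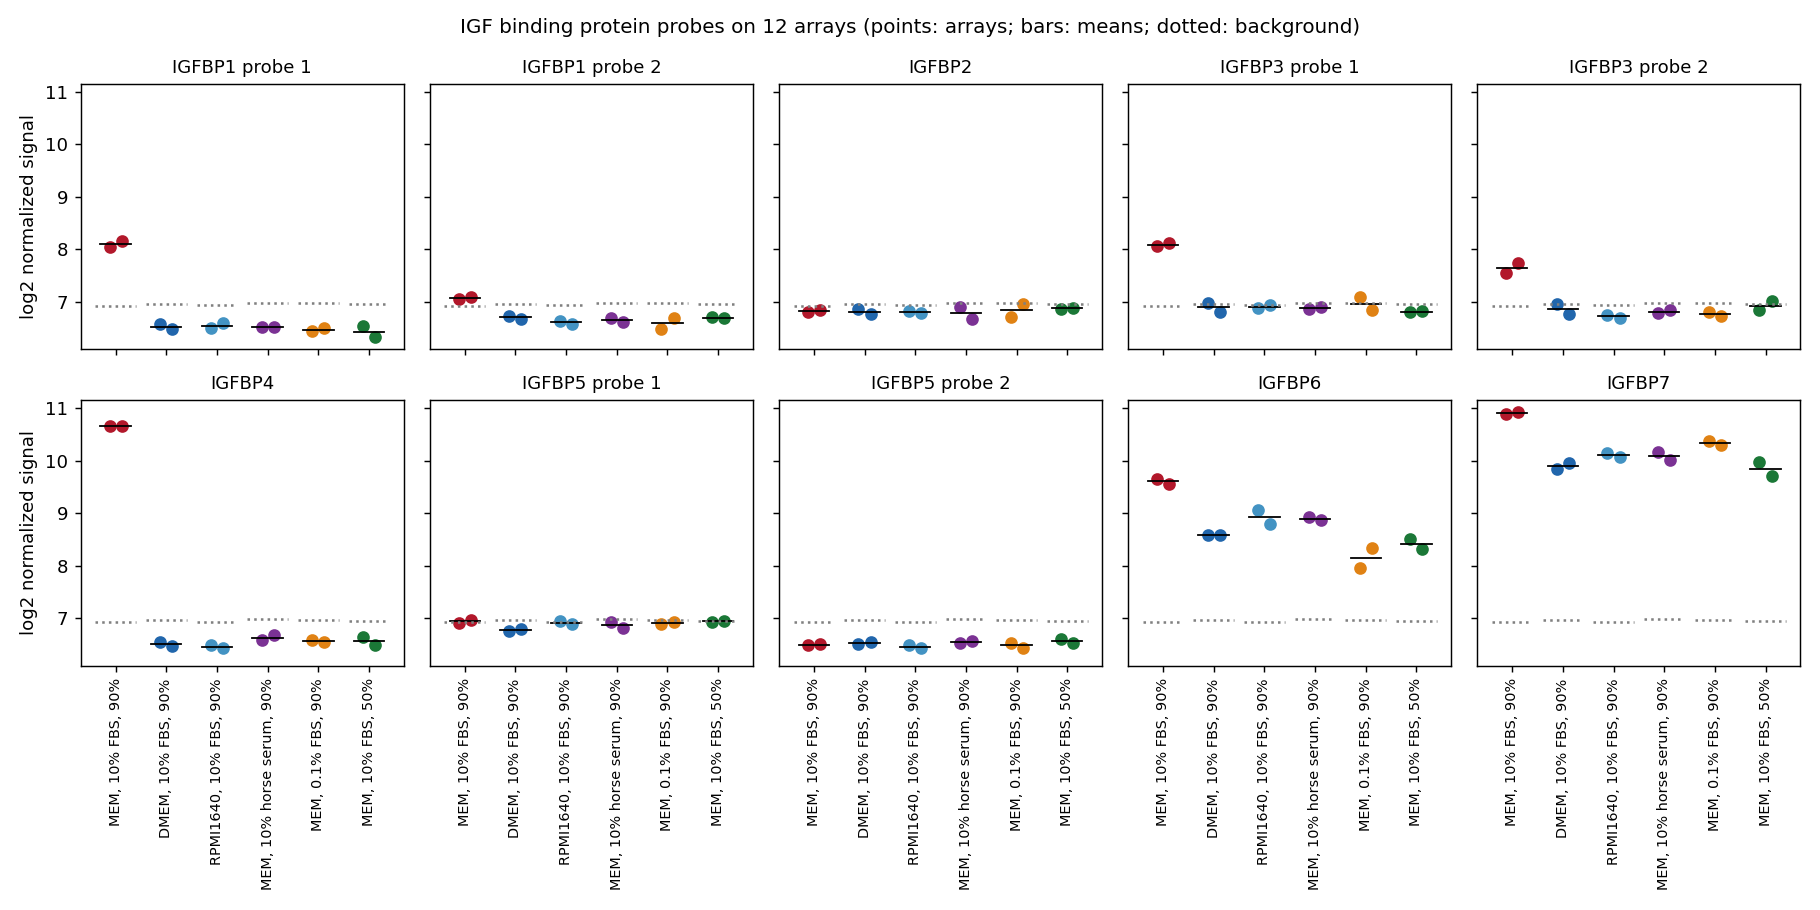
Log2 normalized signal (vertical axis) of the 10 IGFBP probes on 12 arrays, 1 panel per probe, with points for arrays, bars for the means of 2 arrays and dotted lines for the mean background of the condition (labels give medium, serum and confluence). Both reference arrays lie above the other 10 on 7 probes, while IGFBP6 and IGFBP7 alone are above background on all 12.

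IGFBP4 encodes a carrier that mostly inhibits IGF action and that the protease PAPPA cuts. It was bright on the reference arrays and not above background on any other. Its log2 signal was 10.65 and 10.65 on the reference arrays, 6.54 and 6.47 in DMEM, 6.48 and 6.44 in RPMI1640, 6.58 and 6.67 in horse serum, 6.59 and 6.55 in 0.1% FBS, and 6.63 and 6.49 at 50% confluence. The reference mean was 10.65 ± 0.00074 (SD, n = 2 arrays), and the other 10 arrays spanned only 0.23 on the log2 scale. The log2 difference was 4.15 from DMEM (95% confidence interval 3.95 to 4.34, limma, adjusted p = 7.68e-14) and 4.19 from RPMI1640 (4.00 to 4.38, adjusted p = 6.92e-14). It was 4.02 from horse serum (3.83 to 4.22, adjusted p = 1.03e-13), 4.08 from 0.1% FBS (3.89 to 4.27, adjusted p = 9.68e-14) and 4.09 from 50% confluence (3.89 to 4.28, adjusted p = 9.54e-14). A fold against a condition below background is a lower bound, with each dim array set at its background or its own signal, whichever was higher. As such a bound, IGFBP4 was at least 12.9-fold higher than in DMEM, 13.2-fold than in RPMI1640, 12.7-fold than in horse serum, 12.8-fold than in 0.1% FBS and 13.0-fold than at 50% confluence.

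IGFBP1, whose product is a small carrier made mainly by liver and decidua and held down by insulin in hepatocytes, was also above background only on the reference arrays. Probe 1 measured 8.04 and 8.15 on the reference arrays, 6.57 and 6.48 in DMEM, 6.49 and 6.60 in RPMI1640, 6.52 and 6.52 in horse serum, 6.44 and 6.49 in 0.1% FBS, and 6.53 and 6.33 at 50% confluence. No other array came within 1 log2 unit of the reference arrays. The log2 difference of probe 1 was 1.58 from DMEM, 1.55 from RPMI1640, 1.58 from horse serum, 1.63 from 0.1% FBS and 1.67 from 50% confluence, each with a standard error of 0.10 (limma, adjusted p = 4.43e-09 to 1.16e-08). As lower bounds these were at least 2.20-, 2.25-, 2.16-, 2.18- and 2.21-fold in the same order.

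Probe 2 of IGFBP1 ran the same way much closer to background. It measured 7.06 and 7.09 on the reference arrays, 6.73 and 6.67 in DMEM, 6.63 and 6.58 in RPMI1640, 6.68 and 6.62 in horse serum, 6.48 and 6.69 in 0.1% FBS, and 6.70 and 6.70 at 50% confluence. The reference arrays were again the only ones above background, and the lower bounds were at least 1.07- to 1.11-fold. The log2 differences were 0.38 from DMEM, 0.47 from RPMI1640, 0.42 from horse serum, 0.49 from 0.1% FBS and 0.38 from 50% confluence (limma, adjusted p = 0.00823, 0.0016, 0.0032, 9.17e-04 and 0.00843). Without the second reference array the differences from DMEM and from 50% confluence were both 0.36 and no longer called (adjusted p = 0.0728 and 0.0753), nor was the one from DMEM without the second DMEM array (0.34, adjusted p = 0.0612). Over 12 limma alternatives the adjusted p ranged from 0.00297 to 0.0728 for DMEM and from 0.00305 to 0.0753 for 50% confluence. Together with IGFBP4, both IGFBP1 probes made up 3 of 10 that were above background on both reference arrays and on none of the other 10, which held for 1.72% of all probes.

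IGFBP3 encodes the main carrier of IGFs in serum, which forms a ternary complex with the acid-labile subunit. Probe 1 measured 8.06 and 8.11 on the reference arrays, 6.98 and 6.80 in DMEM, 6.87 and 6.94 in RPMI1640, 6.87 and 6.91 in horse serum, 7.09 and 6.84 in 0.1% FBS, and 6.80 and 6.82 at 50% confluence. Probe 2 measured 7.55 and 7.75 on the reference arrays, 6.96 and 6.76 in DMEM, 6.75 and 6.69 in RPMI1640, 6.78 and 6.84 in horse serum, 6.81 and 6.72 in 0.1% FBS, and 6.84 and 7.01 at 50% confluence. On each probe 2 arrays outside the reference condition were above background, 1 of DMEM on both, 1 of 0.1% FBS on probe 1 and 1 of 50% confluence on probe 2, and no condition but the reference was above it on both arrays.

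Since the other 5 conditions lay at or near background and share the reference arrays, the sizes of the IGFBP3 differences cannot be ordered among the comparisons. For probe 1 the log2 difference was 1.19 from DMEM, 1.18 from RPMI1640, 1.20 from horse serum, 1.12 from 0.1% FBS and 1.28 from 50% confluence (standard error 0.10, limma, adjusted p = 1.71e-07 to 4.74e-07). For probe 2 it was 0.79, 0.92, 0.84, 0.88 and 0.72 in the same order (standard error 0.11, adjusted p = 7.54e-06 to 8.79e-05). Where every array of the dimmer condition was below background, probe 1 gave at least 2.23-fold for RPMI1640, 2.15-fold for horse serum and 2.19-fold for 50% confluence, and probe 2 gave at least 1.64-fold for RPMI1640, 1.58-fold for horse serum and 1.60-fold for 0.1% FBS. Both probes were called higher in the reference in all 5 comparisons.

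IGFBP6 encodes a carrier that prefers IGF-II. It was above background on all 12 arrays, highest in the reference condition and lowest in 0.1% FBS. Its log2 signal was 9.64 and 9.56 on the reference arrays, 8.58 and 8.58 in DMEM, 9.05 and 8.79 in RPMI1640, 8.92 and 8.87 in horse serum, 7.95 and 8.34 in 0.1% FBS, and 8.50 and 8.31 at 50% confluence. The reference arrays overlapped no other condition, while the arrays of RPMI1640 overlapped those of horse serum and the arrays of 0.1% FBS those of 50% confluence. Against the reference condition IGFBP6 was 2.03-fold lower in DMEM (log2 difference 1.02, limma, adjusted p = 1.52e-05), 1.61-fold lower in RPMI1640 (0.68, adjusted p = 7.79e-04) and 1.63-fold lower in horse serum (0.71, adjusted p = 5.06e-04). It was 2.75-fold lower in 0.1% FBS (1.46, adjusted p = 2.62e-07) and 2.29-fold lower at 50% confluence (1.20, adjusted p = 3.16e-06), with a standard error of 0.13 for each difference.

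IGFBP7, whose secreted product is known as a growth suppressor in several cancers, was above background on all 12 arrays. It measured 10.89 and 10.92 on the reference arrays, 9.84 and 9.95 in DMEM, 10.14 and 10.07 in RPMI1640, 10.16 and 10.01 in horse serum, 10.37 and 10.30 in 0.1% FBS, and 9.97 and 9.70 at 50% confluence. Both reference arrays exceeded the other 10 by at least 0.5 on the log2 scale, and among the rest the arrays of 0.1% FBS were highest and overlapped no other condition. Against the reference condition it was 2.01-fold lower in DMEM (log2 difference 1.01, limma, adjusted p = 2.18e-06), 1.74-fold lower in RPMI1640 (0.80, adjusted p = 2.71e-05) and 1.77-fold lower in horse serum (0.82, adjusted p = 1.73e-05). It was 1.49-fold lower in 0.1% FBS (0.57, adjusted p = 4.90e-04) and 2.11-fold lower at 50% confluence (1.07, adjusted p = 1.18e-06), with a standard error of 0.10 for each. IGFBP6 and IGFBP7 were 2 of the 12270 probes above background on all 12 arrays, of which 13.6% were called higher in the reference condition in all 5 comparisons.

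**Figure D2:**
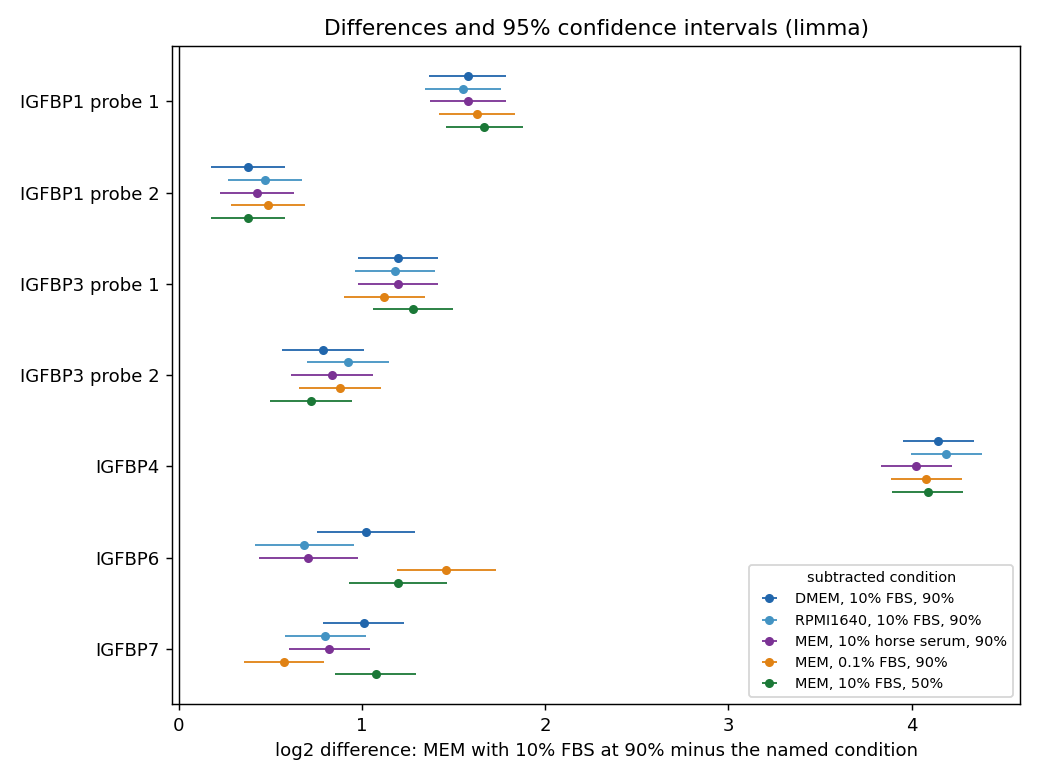
Log2 difference (horizontal axis) of the reference condition, MEM with 10% FBS at 90% confluence, minus each other condition for the 7 called IGFBP probes, with points for limma estimates, bars for 95% confidence intervals and colors for the subtracted condition. IGFBP4 lies near 4 in all 5 comparisons and IGFBP6 and IGFBP7 between 0.57 and 1.46, with 0.1% FBS giving the largest difference for IGFBP6 and the smallest for IGFBP7.

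IGFBP2 and IGFBP5 encode carriers that in other cells bind proteoglycans and matrix, and neither gave a clear signal. The IGFBP2 probe was above background on 0 of 12 arrays, at 6.80 and 6.83 on the reference arrays and at 6.67 to 6.96 on the other 10. Probe 1 of IGFBP5 ranged from 6.76 to 6.97 and was above background on 3 arrays, 1 each of the reference condition, RPMI1640 and 50% confluence. Probe 2 of IGFBP5 ranged from 6.43 to 6.59 and was above background on none. On these 3 probes the reference arrays lay within the range of the others, except that the second was the highest of 12 on probe 1 of IGFBP5 (6.97 against at most 6.95). No difference from the reference condition was called, with 95% confidence intervals for IGFBP2 reaching at most from -0.28 to 0.26 on the log2 scale (limma, adjusted p = 0.834 to 0.991). For IGFBP5 the largest difference was 0.16 from DMEM on probe 1 (-0.03 to 0.35, adjusted p = 0.273). At this signal a true change of transcripts that stay below background could not be detected.

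By comparison, the count was 7 of 10 probes higher and none lower in each of the 5 comparisons with the reference condition. The share of all probes called higher was 10.9% for DMEM, 9.82% for RPMI1640, 11.5% for horse serum, 11.5% for 0.1% FBS and 10.3% for 50% confluence. The median log2 difference of the 10 probes was 0.90 for DMEM, 0.74 for RPMI1640, 0.76 for horse serum, 0.73 for 0.1% FBS and 0.90 for 50% confluence, where the median over all probes was between -0.01 and 0.00. Of the 7 genes 5 were higher and 2 were not called in each, where 11.2% to 13.1% of all gene symbols, each by its brightest probe, were called higher.

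Among the 5 conditions other than the reference, few differences of the family were called, and all of those lay in IGFBP6 and IGFBP7. DMEM and RPMI1640, the design's comparison of media without the reference, gave 0 called of 10 probes, where 5.33% of all probes were called. The count was likewise 0 between DMEM and horse serum (5.04% of all probes), DMEM and 50% confluence (8.35%), RPMI1640 and horse serum (8.46%) and RPMI1640 and 50% confluence (0.22%). It was 2 between DMEM and 0.1% FBS (11.9%), and 1 each between RPMI1640 and 0.1% FBS (8.53%), horse serum and 0.1% FBS (11.5%), horse serum and 50% confluence (9.48%) and 0.1% FBS and 50% confluence (10.8%).

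In 0.1% FBS, IGFBP6 had its lowest and IGFBP7 its second highest mean of the 6 conditions. IGFBP6 was lower in 0.1% FBS than in RPMI1640 by 0.78 (95% confidence interval 0.51 to 1.05, limma, adjusted p = 8.19e-04) and than in horse serum by 0.75 (0.48 to 1.02, adjusted p = 9.06e-04), and both calls were kept in all 14 limma alternatives. The difference from DMEM was smaller, 0.44 (0.17 to 0.71, adjusted p = 0.0332), and was not called in 6 of 14 alternatives, among them the fit without both reference arrays (adjusted p = 0.0517) and the fit without the first 0.1% FBS array (0.24, adjusted p = 0.336, range over alternatives 0.0041 to 0.336). IGFBP7 was higher in 0.1% FBS than in DMEM by 0.44 (0.22 to 0.66, adjusted p = 0.0104) and than at 50% confluence by 0.50 (0.28 to 0.72, adjusted p = 0.00413). The first of these was lost without the first DMEM array (adjusted p = 0.0911), without the first 0.1% FBS array (0.0666) and with a trended robust variance (0.0528, range over alternatives 0.01 to 0.0911). The second was lost without the second 50% confluence array, at 0.37 and adjusted p = 0.0663 (range over alternatives 0.00377 to 0.0663).

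IGFBP6 also differed between horse serum and 50% confluence, by 0.49 (95% confidence interval 0.22 to 0.76, limma, adjusted p = 0.0221). This call was lost without either horse serum array (adjusted p = 0.101 and 0.0678) or without the second 50% confluence array (0.39, adjusted p = 0.184, range over alternatives 0.0183 to 0.184). A like difference of 0.51 between RPMI1640 and 50% confluence (0.24 to 0.78) had an adjusted p of 0.138, in a comparison where 0.22% of all probes were called. IGFBP6 did not pass the test between DMEM and RPMI1640 (-0.34, -0.61 to -0.07, adjusted p = 0.171), and neither did IGFBP7 (-0.21, -0.43 to 0.01, adjusted p = 0.348).

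**Figure D3:**
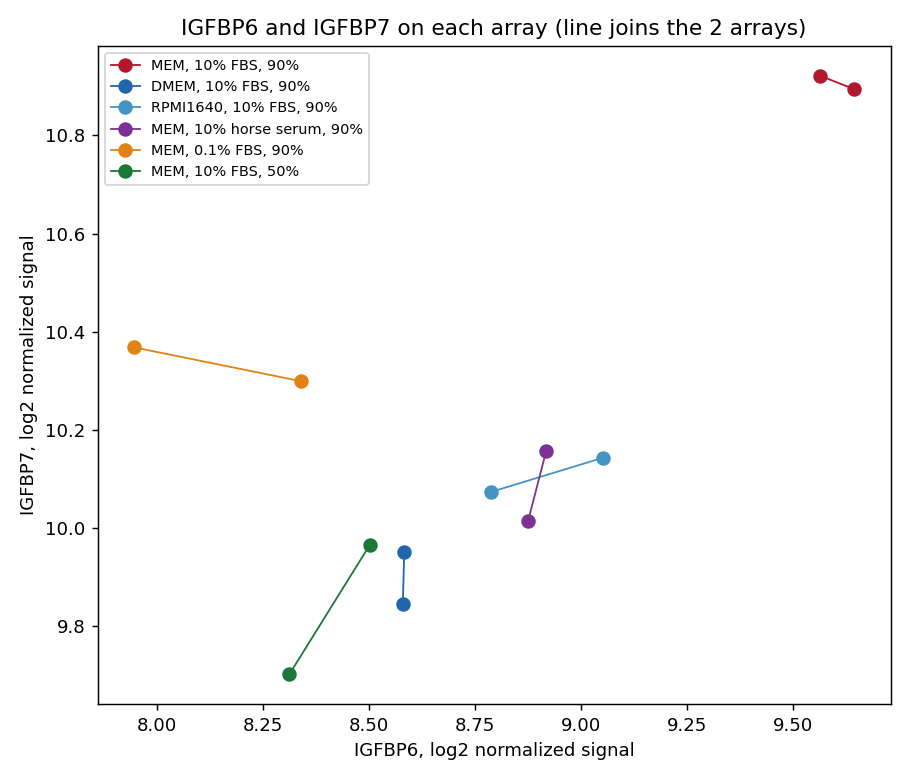
IGFBP6 (horizontal axis) against IGFBP7 (vertical axis), both as log2 normalized signal, with 1 point per array and a line joining the 2 arrays of a condition. The reference arrays are highest on both axes, while the 0.1% FBS arrays are at the low end for IGFBP6 (7.95 and 8.34) and next to highest for IGFBP7 (10.37 and 10.30).

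The order of condition means for IGFBP6 was the reference condition at 9.60 ± 0.06, RPMI1640 at 8.92 ± 0.19, horse serum at 8.90 ± 0.03, DMEM at 8.58 ± 0.0024, 50% confluence at 8.41 ± 0.13 and 0.1% FBS at 8.14 ± 0.28 (SD, n = 2 arrays). Only the first pair of neighbours in this order differed past the threshold, and the other 4 had adjusted p-values of 0.208 to 0.958. The order for IGFBP7 was the reference condition at 10.91 ± 0.02, 0.1% FBS at 10.33 ± 0.05, RPMI1640 at 10.11 ± 0.05, horse serum at 10.09 ± 0.10, DMEM at 9.90 ± 0.08 and 50% confluence at 9.83 ± 0.19 (SD, n = 2 arrays). Here too only the first pair was called, with the other 4 at adjusted p-values of 0.271 to 0.949. For IGFBP1, IGFBP3 and IGFBP4 no 2 neighbours among the other 5 conditions differed past the threshold (adjusted p of 0.755 or more), and their order there carries no information since these signals were at background.

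The wider IGF pathway was described with 32 other genes in 7 lists of ligands, receptors, adaptors, the acid-labile subunit, proteases, pappalysin inhibitors and relatives with an IGFBP domain, each gene by its brightest probe. Of these, 16 were above background on both arrays of some condition. Relative to the reference condition they moved in both directions: 9 were higher and 4 lower in the reference than in DMEM (of all symbols 12% and 11.9%), 7 and 5 for RPMI1640 (11.2% and 10.6%), 8 and 6 for horse serum (12.7% and 12%), 7 and 8 for 0.1% FBS (13.1% and 12.4%) and 7 and 4 for 50% confluence (11.8% and 10.8%). Their median log2 difference was 0.03, 0.04, -0.05, -0.06 and 0.02 in the same order. Between DMEM and RPMI1640, 1 was higher and 3 lower in DMEM (2.94% and 2.89% of all symbols), with a median of 0.01.

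Of the 3 ligands, IGF1, IGF2 and INS (insulin), none was above background on both arrays of any condition, nor was IGFALS, the gene of the acid-labile subunit. Of the 3 receptors only IGF2R was, which clears IGF-II and sorts lysosomal enzymes. It was at 9.91 in the reference condition, 10.89 in DMEM, 10.05 in RPMI1640, 11.02 in horse serum, 11.10 in 0.1% FBS and 10.25 at 50% confluence. It was lower in the reference than in DMEM by 0.98 (limma, adjusted p = 1.24e-04), horse serum by 1.11 (adjusted p = 3.51e-05) and 0.1% FBS by 1.19 (adjusted p = 1.45e-05), and it was higher in DMEM than in RPMI1640 (0.84, adjusted p = 0.00342). IGF1R, the signaling receptor, was above background on 1 of the 2 DMEM arrays and on no other array, and so is given no fold. Its probe still passed the test as lower in the reference than in DMEM (limma, adjusted p = 0.0026) and RPMI1640 (adjusted p = 0.0147).

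Among the 5 receptor adaptors, IRS1 and SHC1 were higher in the reference than in every other condition. The same held for 16.4% of the 17273 probes above background on both reference arrays. IRS1, the docking protein of the IGF and insulin receptors, was at 8.92 against 6.58 to 7.24, a measured log2 difference of 1.68 to 2.34 (limma, adjusted p = 6.42e-10 to 2.73e-08). It was not above background on any array of horse serum or 0.1% FBS, where the lower bounds were at least 3.82- and 3.85-fold, and only on 1 of 2 arrays in DMEM and in RPMI1640. SHC1, which links the receptors to RAS, was at 11.48 against 10.33 to 10.95 (0.53 to 1.15, adjusted p = 2.10e-06 to 0.00291). IRS2 was higher in the reference, at 8.65, than in RPMI1640 (8.14), horse serum (8.16) and 50% confluence (8.06), and lower than in 0.1% FBS (9.29, a difference of -0.64, adjusted p = 0.00123). GRB10, an inhibitory adaptor, was likewise highest in 0.1% FBS, at 7.74 against 7.26 in the reference (adjusted p = 0.006). Its lowest mean was in DMEM, at 6.92 and not above background on either array.

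The genes that set the fate of the carriers differed in direction. PAPPA, the pappalysin that cuts IGFBP4, was above background only on the reference arrays, at a mean of 7.06, and was called higher than in DMEM (adjusted p = 0.00471) and horse serum (adjusted p = 0.0304) and not in the other 3 comparisons. HTRA1, a serine protease that cuts IGFBP5, was at 7.32 in the reference and not above background elsewhere (limma, adjusted p = 2.02e-06 to 2.06e-05, at least 1.26- to 1.31-fold). ADAM9, a membrane protease, was at 7.52 in the reference and 7.42 in DMEM against 9.27 in RPMI1640, 8.06 in horse serum, 9.09 in 0.1% FBS and 9.18 at 50% confluence. STC1 and STC2, the stanniocalcins that inhibit pappalysins, went opposite ways. STC1 was at 7.67 in the reference against 6.81 to 6.97 (adjusted p = 2.13e-06 to 2.38e-05), at least 1.61- to 1.65-fold higher than in the 4 conditions below background on both arrays. STC2 was at 7.95 against 10.13 to 11.18, lower by 2.18 to 3.22 on the log2 scale (adjusted p = 3.37e-10 to 3.42e-08). HTRA1 and STC1 were called higher in all 5 comparisons, as were 16.4% of the 17273 probes above background on both reference arrays. The share of probes called lower in all 5, as STC2 was, was not computed.

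Of the 12 relatives with an IGFBP domain, 6 were above background in some condition, and the CCN genes CTGF, CYR61 and NOV, which encode matricellular proteins, differed in all 5 comparisons. The CCN genes WISP1, WISP2 and WISP3 were not above background on both arrays of any condition. CTGF and CYR61 were higher in the reference each time, as were 16.4% of the 17273 probes above background on both reference arrays. CTGF was at 10.96 in the reference against 7.37 to 8.60 (2.36 to 3.60 higher, limma, adjusted p = 5.66e-11 to 7.31e-09), and CYR61 at 12.15 against 9.34 to 11.33 (0.82 to 2.81, adjusted p = 1.56e-09 to 6.41e-04). NOV was at 9.63 against 11.48 to 12.29, lower by 1.85 to 2.65 (adjusted p = 4.78e-09 to 3.85e-07). In each single comparison 10.6% to 12.4% of all symbols were called lower in the reference, and the share lower in all 5 was not computed. CRIM1, a membrane protein that binds bone morphogenetic proteins, was higher in the reference, at 8.08, than in DMEM (7.62) and lower than in the other 4 conditions (8.42 to 9.42). IGFBPL1 was above background on both arrays in horse serum (7.14) and 0.1% FBS (7.19) alone, the reference being at 6.72. KAZALD1 was at 7.49 in the reference against 7.18 to 7.40, called only for 0.1% FBS (adjusted p = 0.0441).

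**Figure D4:**
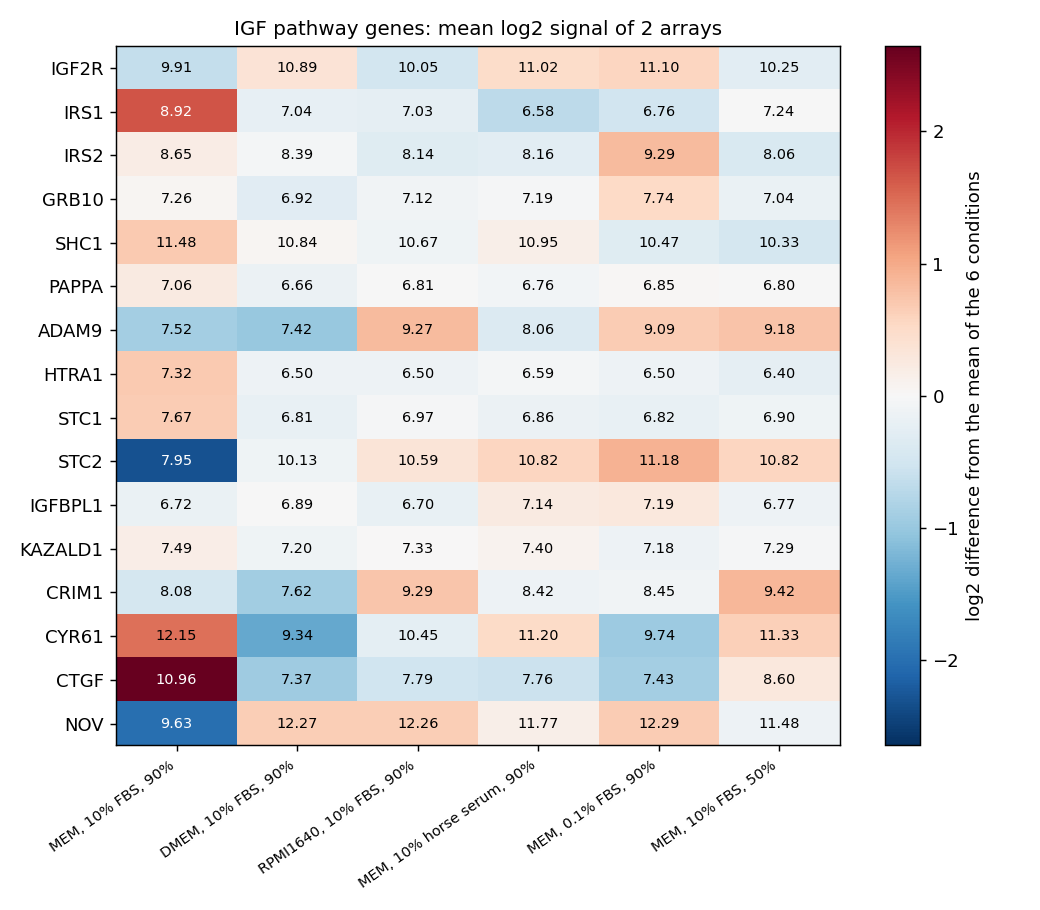
Mean log2 signal of 2 arrays (printed in each cell) for the 16 IGF pathway genes above background on both arrays of some condition, in rows, over 6 conditions, in columns, with color for the log2 difference from the gene's mean over the conditions. In the reference column CTGF, CYR61 and IRS1 are high and STC2 and NOV low.

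The genes whose signal ran most like each called probe were found by Pearson's r over the 12 arrays, among 7007 or 7008 probes with a symbol, a range of at least 1 log2 unit and a signal above background in some condition. For IGFBP4 these were XAGE1A (r = 0.999, 13.10 in the reference against 6.57 to 6.75), CYBA (0.999, 12.13 against 6.44 to 6.59) and ZNF22 (0.999, 9.46 against 6.49 to 6.58). For IGFBP1 they were LOC644743 and XAGE1C for probe 1 (0.996 to 0.997) and SPRY4, GAS6 and ABHD7 for probe 2 (0.962 to 0.975). For IGFBP3 they were FBLN1, HRASLS3 and SPANXB1 for probe 1 (0.989 to 0.990) and GRAP, GALC and CDH4 for probe 2 (0.979 to 0.983). These values are descriptions, since the 12 points share 2 arrays that stood apart and any gene raised there gives a high r.

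IGFBP6 and IGFBP7 had lower values of likeness, and their signal also varied among the other 5 conditions. WDR54 (r = 0.966, 11.72 in the reference against 10.53 to 11.36), MPRIP (0.962, 9.41 against 7.63 to 8.76) and RAC2 (0.946, 12.41 against 10.89 to 11.51) were nearest to IGFBP6. POLR3GL (0.957, 10.06 against 9.00 to 9.35), PFDN5 (0.954, 12.22 against 11.16 to 11.66) and PER2 (0.954, 8.47 against 7.35 to 7.73) were nearest to IGFBP7.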

How the data were processed

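The authors hybridized biotin-labeled cRNA to Illumina HumanHT-12 v4 arrays, read them with BeadStudio per the labels, and normalized by quantiles in limma. The authors deposited intensities on the linear scale, which proved already normalized (a second quantile normalization moved no value by over 0.025), and log2 values of these signals, which the series table repeats exactly. The tables exchange the values of 8 probes in pairs, none of them of IGFBP genes, and hold no detection p-values and no columns of the authors' comparisons. Neither the genome build nor the probe annotation release is given in the sources used here.

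Groups came from the sample labels. The deposited log2 values of all 47231 probes, 3270 of them without a gene name, were fitted with limma 3.58.1 in R 4.3.3 in 1 model of 6 condition means over 12 arrays, with 6 residual and 8.96 prior degrees of freedom. All 15 pairwise contrasts were tested with limma's moderated test and adjusted by Benjamini-Hochberg over all probes. The 2 arrays per condition limit the precision. The script was tested on simulated data. Named genes were all IGFBP probes, the 3 symbols most like each called probe, and called pathway genes above background. For probe 1 of IGFBP1, 1 of the 3 is not reported here. The members and lists were chosen with earlier results of these data known, and no set test was run. Replicate numbers were not used to pair the samples. Deviations of same-numbered arrays correlated at -0.11 to 0.22 over 15 pairs of groups and exceeded 0.1 in 4, which does not settle whether the numbers mark pairs.

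Alternatives were the linear and series tables, scaling by median or 75th percentile, probes above background, the brightest probe per symbol, the compared groups alone, trended robust variance, replicate block, each array left out, both reference arrays left out, a 2-fold limit, and the methods' t-test. Promoter windows came from RefSeq. Python 3.11.15 with matplotlib 3.10.9 drew the figures.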

Additional observations from a re-analysis of the deposited data

How the results depend on the processing

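The direction of no called difference reversed. Of 1720 recomputed differences of single IGFBP probes, 1610 kept their side of the threshold, and the called ones among them also kept their direction. Another 109 lost a call (93 of them under the 2-fold limit or the methods' t-test, 16 under the limma alternatives) and 1 gained one. That gain was IGFBP6, lower in 0.1% FBS than at 50% confluence by 0.46 without the second 0.1% FBS array (adjusted p = 0.0337, range over alternatives 0.0337 to 0.876). Directions of differences not called were not compared. The linear table, the series table, both scalings and the restriction to probes above background left every count of called IGFBP probes within 1.5 times. The series table repeats the log2 values exactly and so could not change a count. For IGFBP probes the linear table differed by at most 4.4e-09, and its second quantile normalization moved no value by over 0.025. Both count among the alternatives, but neither is a separate check.

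The 7 called IGFBP probes became 5 for DMEM, 3 for RPMI1640, 3 for horse serum, 4 for 0.1% FBS and 5 for 50% confluence with a limit of 2-fold. With the methods' t-test at P under 0.001 they became 1 for DMEM, 1 for RPMI1640, 2 for horse serum, 1 for 0.1% FBS and 2 for 50% confluence, and after Benjamini-Hochberg 1, 1, 0, 1 and 0 in the same order, a test with 2 arrays a group and no pooled spread. A condition left with 1 array was assumed to vary like the others, and leaving out 1 array gave 6 to 7 for DMEM and 50% confluence and 7 for the others. Without the reference arrays, the count of 2 between DMEM and 0.1% FBS became 1, and it was 1 with the compared groups alone, 0 with trended robust variance, 0 with the 2-fold limit or either t-test, and 0 to 2 with 1 array left out. The counts of 1 between 0.1% FBS and RPMI1640, horse serum or 50% confluence, and between horse serum and 50% confluence, became 0 with the 2-fold limit and with both t-tests, and ranged over 0 to 1 (horse serum and 50% confluence) and 0 to 2 (0.1% FBS and 50% confluence) with 1 array left out.

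For the pathway lists, whose alternatives were chosen after seeing the data, the counts of 13, 12, 14, 15 and 11 for DMEM, RPMI1640, horse serum, 0.1% FBS and 50% confluence became 5, 7, 5, 8 and 7 with the 2-fold limit, 0, 3, 3, 1 and 0 with the t-test, and 0, 1, 1, 0 and 0 after Benjamini-Hochberg. The count of 4 between DMEM and RPMI1640 became 0 with both t-tests. With 1 array left out the counts were 11 to 12, 10 to 11, 10 to 12, 12 to 14, 11 and 3 to 4. The cause of these changes was not tested.

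With replicate number as a block, every count was that of the fit without it, 7 called IGFBP probes in each comparison with the reference condition and 0 between DMEM and RPMI1640. Whether the numbers mark pairs is not known, so the block served only as a check. The lack of detection p-values limits what can be said of probes near background, and 2 arrays per condition limit every mean.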
